A study of Mus musculus with 23 samples.

Results

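The miR-10 family in mouse liver was described here through its 4 mature microRNAs (miRNAs), mmu-miR-10a-5p, mmu-miR-10a-3p, mmu-miR-10b-5p and mmu-miR-10b-3p (the species prefix is left out below), which were taken by name from a small RNA sequencing table of 1218 mature miRNAs. All 4 were present, and 3 of them passed the filter on low counts that 386 miRNAs of the table passed, whereas miR-10b-3p did not. The abundant miR-10a-5p did not pass edgeR's test in any comparison of the groups. The level of miR-10b-5p was lower in both high-fat groups than in the reference group, and that difference rested on 1 reference liver, library 5.

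Livers of 23 C57bl/6J male mice of the F3 generation were compared, each mouse giving 1 library. The reference group (STD_Cont, n = 8, libraries 1 to 8) came from the control fatty acid lineage, whose breeding diet carried high oleic sunflower oil, and ate a low-fat diet during the challenge. The HFoleic group (HFD_Cont, n = 8, libraries 9 to 15 and 23) came from the same lineage and ate a high-fat, high-sucrose diet. The HFepa group (HFD_O3, n = 7, libraries 16 to 22) ate that high-fat, high-sucrose diet too, and came from the n-3PUFA lineage, whose breeding diet carried fish oil rich in eicosapentaenoic acid (EPA). HFepa and reference mice thus differed in both diet and lineage. By design HFoleic and reference mice differed in diet alone, and HFepa and HFoleic mice in lineage alone. Library numbers also differed between the groups, so neither comparison is free of library number. The age of the mice is not given in the sources used here.

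A miRNA guides the silencing complex to messenger RNAs mainly through its seed, bases 2 to 8 counted from the 5′ end. Genes of the miR-10 family lie inside the Hox clusters of many animals, among the Hox genes, which encode transcription factors that set position along the body axis, and some Hox transcripts are known targets of miR-10. Each hairpin gives a 5p and a 3p strand, and the 5p strand is the one usually kept in the silencing complex. In bulk liver RNA, more cells of a type and more of the miRNA in each cell cannot be told apart.

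The mature sequences are shown because the 5p strands of the 2 genes are nearly the same molecule, which bears on how their reads can be separated. They were taken from RefSeq (build GRCm38.p6), in which all 4 members were matched by name, and the capitals mark the seed.
miR-10a-5p: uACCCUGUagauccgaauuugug
miR-10b-5p: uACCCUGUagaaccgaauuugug
miR-10a-3p: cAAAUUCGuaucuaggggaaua
miR-10b-3p: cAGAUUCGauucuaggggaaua
The 5p strands, of 23 bases each, shared the whole seed and differed by 1 substitution, U12A, with the base of miR-10a given first and positions counted from 1 at the 5′ end. The seed ACCCUGU was held by only these 2 of 1679 mature mouse miRNA names in that table. The 3p strands, of 22 bases, differed by A3G, U9A and A10U, the first of which lies in the seed. The authors' alignment allowed mismatches, so reads of miR-10a-5p and miR-10b-5p may have been shared or split between the 2 entries, and whether they were was not tested.

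The hairpins are shown with both mature strands in capitals, to place each strand in its precursor.
Mir10a: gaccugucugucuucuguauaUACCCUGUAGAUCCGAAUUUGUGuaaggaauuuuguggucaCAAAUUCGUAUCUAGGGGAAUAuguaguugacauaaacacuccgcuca
Mir10b: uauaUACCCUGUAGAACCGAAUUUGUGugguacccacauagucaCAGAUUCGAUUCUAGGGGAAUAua
Mir10a lies at chr11:96317165-96317274 on the plus strand of GRCm38.p6, in the Hoxb cluster. In the GENCODE M21 annotation it is intergenic among protein-coding genes, 992 bp before the start of Hoxb4 and 11043 bp after the end of Hoxb5. Mir10b lies at chr2:74726070-74726137 on the plus strand, in an intron of both Hoxd3 and Hoxd4. Reads of the mature strands do not cover the Hox messages, so these positions are given as context and no Hox gene level was measured here.

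The members differed widely in level, given here as CPM, the usual rate of counts per library total after TMM scaling. The guide strand mmu-miR-10a-5p ranked 7 of 1218 miRNAs, at a mean of 38980 CPM, and took 3.85% of all counts. Next came mmu-miR-10b-5p at rank 45 with 1540 CPM, mmu-miR-10a-3p at rank 213 with 21.1 CPM and mmu-miR-10b-3p at rank 666 with 0.133 CPM. This order of the 4 was the same in every group mean, and the levels of miR-10a-5p, miR-10b-5p and miR-10a-3p did not overlap in any group. The mature strands have 22 or 23 bases and a read spans the whole strand, so no length correction was applied, but adapter ligation favours some sequences over others and a ratio of reads is not a ratio of molecules.

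Spread between mice also separated the members. Within groups the SD of log2 CPM was 0.228 for miR-10a-5p and 0.201 for miR-10a-3p, where the median of all 386 tested miRNAs was 0.334. For miR-10b-5p it was 1.40, which was rank 5 of 386 from the most variable. The libraries held 3725432 to 8139344 counts, and all 77 pairs of libraries within groups differed beyond counting noise (chi-square per degree of freedom of at least 28.9), so each was kept as 1 replicate. Hepatocyte miRNAs were high throughout, with miR-192-5p at a mean of 205181 CPM and the liver-defining miR-122-5p at 18681 CPM. Library 5, a reference liver, stood apart: 10 of the 386 tested miRNAs were at least 2 log2 units above every other library there, and the members' results that moved most with it are also given without it.

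**Figure D1:**
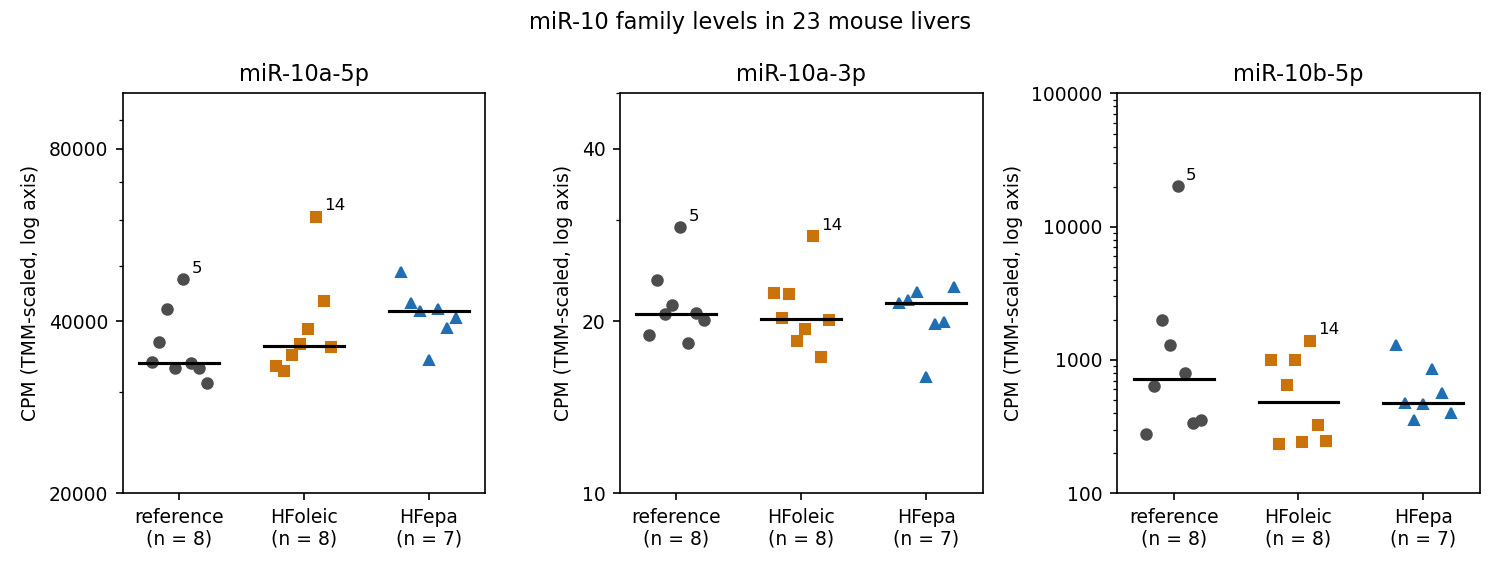
Level of miR-10a-5p, miR-10a-3p and miR-10b-5p in each of 23 livers, in TMM-scaled CPM on log axes, by group (circles reference, squares HFoleic, triangles HFepa), with a bar at each group's median and libraries 5 and 14 numbered. The groups overlap for each miRNA, and library 5 stands at 20244 CPM of miR-10b-5p while the next highest liver has 1981 CPM.

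In the reference group the level of miR-10a-5p ran from 31186 CPM to 47393 CPM with a median of 33819 CPM. In HFoleic it ran from 32712 CPM to 60919 CPM with a median of 36178 CPM, and in HFepa from 34127 CPM to 48786 CPM with a median of 41569 CPM. The 3 ranges overlapped, and the highest liver of all was library 14 of HFoleic, at 60919 CPM with the next HFoleic liver at 43394 CPM. The mean was 36407 ± 5536 CPM in reference (SD, n = 8), 39555 ± 9263 CPM in HFoleic (n = 8) and 41263 ± 4410 CPM in HFepa (n = 7).

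The level of miR-10a-5p was not called in any comparison by the quasi-likelihood test of edgeR, whose p-values were adjusted by Benjamini-Hochberg over the 386 miRNAs. A call needed a log2 fold change beyond 0.25 in size as well as an adjusted p under 0.05. The log2 fold change of miR-10a-5p was 0.12 in HFoleic vs. reference (95% interval -0.12 to 0.36, adjusted p = 0.510). It was 0.18 in HFepa vs. reference (-0.06 to 0.42, adjusted p = 0.339) and 0.06 in HFepa vs. HFoleic (-0.18 to 0.30, adjusted p = 0.968). The 3 intervals together reached from -0.18 to 0.42 on the log2 scale. Without library 14 the HFoleic vs. reference value was 0.000795 and the HFepa vs. HFoleic value 0.19. Without library 5 the HFepa vs. reference value was 0.24 (95% interval 0.004 to 0.47). It was not called there (unadjusted p = 0.0462, adjusted p = 0.187 by edgeR). Of all tested miRNAs 12.4% were called in HFoleic vs. reference and 15.8% in HFepa vs. reference, with a median log2 fold change of -0.002 and -0.06. Between the 2 high-fat groups edgeR called 0% (DESeq2 0 and limma-voom 1), with 22 miRNAs at an unadjusted p under 0.05. By limma-voom with sample quality weights the HFepa vs. reference difference of miR-10a-5p was 0.28 and was called (adjusted p = 0.0156).

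Library number moved with the level of miR-10a-5p. Its mean was 35664 ± 4829 CPM in libraries 1 to 11 (SD, n = 11) and 42019 ± 7129 CPM in libraries 12 to 23 (n = 12). Within HFoleic alone it was 33685 ± 1117 CPM in the 3 libraries numbered 9 to 11 and 43077 ± 10402 CPM in the 5 libraries numbered 12 to 15 and 23. All reference libraries fall in the first range and all HFepa libraries in the second, and nothing in the labels says what the number marks. With a term for these ranges the differences from the reference turned to -0.11 (HFoleic) and -0.17 (HFepa) on the log2 scale. Diet, lineage and library number cannot be told apart for HFepa vs. reference. In HFoleic vs. reference diet and library number are partly mixed, since 5 HFoleic libraries lie in the range without reference libraries.

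The passenger strand miR-10a-3p had 67 to 178 counts a library. Its level ran from 18.3 CPM to 29.2 CPM in reference (median 20.6), from 17.3 CPM to 28.2 CPM in HFoleic (median 20.2) and from 15.9 CPM to 22.9 CPM in HFepa (median 21.5). The groups overlapped nearly whole, and libraries 5 and 14 were the highest, as they were for miR-10a-5p within their groups. No comparison of miR-10a-3p was called by edgeR: the log2 fold change was -0.04 for HFoleic and -0.07 for HFepa, both vs. reference, and -0.03 for HFepa vs. HFoleic, with adjusted p of 0.868, 0.762 and 0.968. The 3 intervals of 95% together reached from -0.30 to 0.21.

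**Figure D2:**
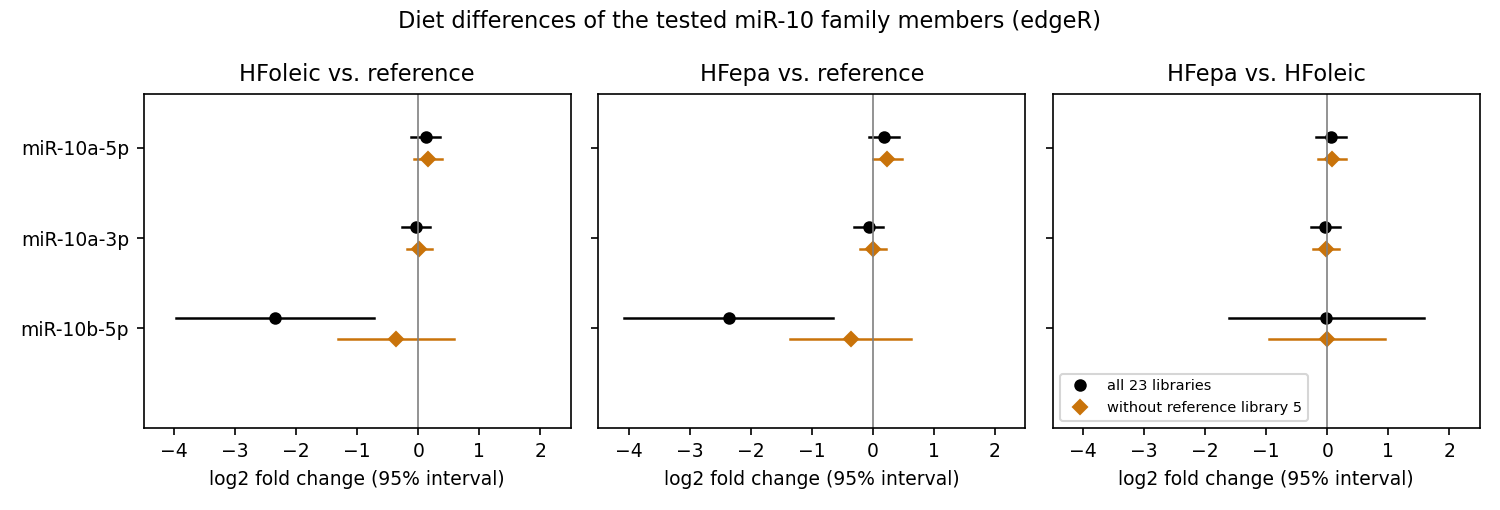
Log2 fold change (points) with its 95% interval (lines) of the 3 tested members in the 3 comparisons, from edgeR, with all 23 libraries (circles) and without reference library 5 (diamonds). Without that library the miR-10b-5p difference from the reference moves from -2.35 to -0.36 in HFoleic and from -2.36 to -0.36 in HFepa. Values of miR-10a-3p stay near 0, and miR-10a-5p in HFepa vs. reference moves from 0.18 to 0.24 (95% interval 0.004 to 0.47).

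The level of miR-10b-5p ran from 280.2 CPM to 20244 CPM in reference, with a median of 713 CPM. In HFoleic it ran from 232 CPM to 1394 CPM with a median of 487 CPM, and in HFepa from 354 CPM to 1292 CPM with a median of 474 CPM. Every high-fat liver lay inside the reference range apart from 3 HFoleic livers at 232 CPM (library 10), 243 CPM (library 13) and 245 CPM (library 23), which were the lowest of all. The mean was 3240 ± 6895 CPM in reference (SD, n = 8), 636 ± 448 CPM in HFoleic (n = 8) and 629.5 ± 335 CPM in HFepa (n = 7), so the SD of the reference group was larger than its mean.

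The level of miR-10b-5p fell by 2.36 on the log2 scale in HFepa vs. reference (standard error 0.826, 5.15-fold lower) and was called with an adjusted p of 0.04998 by edgeR, just under the threshold. In HFoleic vs. reference the log2 fold change was -2.35 (standard error 0.785), and with an adjusted p of 0.0510 by edgeR it was not called. The 2 comparisons share the reference libraries, and HFepa vs. HFoleic gave -0.02 (95% interval -1.62 to 1.59, adjusted p = 0.991). Without library 5 these values moved to -0.36 in HFepa vs. reference (95% interval -1.35 to 0.63, adjusted p = 0.704) and -0.36 in HFoleic vs. reference (-1.31 to 0.59, adjusted p = 0.667), and without libraries 3 and 5 they turned to 0.05 and 0.04. With 1 library omitted at a time, the HFepa call was kept in 6 of 23 fits, those lacking reference library 1, 2, 4, 6, 7 or 8. Within libraries 1 to 11 alone the HFoleic vs. reference value was -2.36 (adjusted p = 0.669), with library 5 in that set. DESeq2, which replaces outlying counts, gave -0.29 for HFepa vs. reference with an adjusted p of 0.750.

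Library 5 held 120566 counts of miR-10b-5p, where the other 22 libraries held 1124 to 13670. The next highest livers were library 3 with 1981 CPM, library 14 with 1394 CPM, library 4 with 1295 CPM and library 16 with 1292 CPM, which belong to all 3 groups. Among the 386 tested miRNAs, miR-10b-5p ranked 3 by its gap between library 5 and the next library, at 3.35 on the log2 scale. In the same liver miR-10a-5p was at 47393 CPM and miR-10a-3p at 29.2 CPM, both the highest of the reference group. The 2 hairpins thus stood high together in that liver, by very different amounts.

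Marker lists of liver cell types and of other tissues were summed in each library, and libraries 5 and 3 stood out in different lists. Apart from the pancreas list, every sum in library 5 lay within the range of the other reference livers. The pancreas list summed to 2021 CPM in library 5 and to 13.0 to 57.4 CPM in the other reference livers, 9.47 to 34.1 CPM in HFoleic and 10.7 to 18.4 CPM in HFepa. Of its 4 miRNAs only miR-375-3p, an endocrine cell miRNA, carried that sum, at 2020 CPM, and without library 5 its log2 fold change moved from -3.87 to -0.32 in HFoleic vs. reference and from -4.19 to -0.62 in HFepa vs. reference and was not called, while miR-216a-5p, miR-216b-5p and miR-217-5p, of the exocrine pancreas, had 1, 1 and 3 counts in library 5. The 5 biliary epithelium miRNAs summed to 175.0 CPM in library 5 and to 1094 CPM in library 3, where the lowest reference liver had 151 CPM, HFoleic had 157 to 333 CPM and HFepa 191 to 264 CPM. The 5 miRNAs of stellate cells, fibroblasts and smooth muscle summed to 33222 CPM in library 5 and 42509 CPM in library 3, with 23453 to 42509 CPM in reference, 19870.4 to 28558 CPM in HFoleic and 23481 to 30362 CPM in HFepa. The 6 leukocyte miRNAs summed to 2800.3 CPM in library 5 and 3557 CPM in library 3, with 1760 to 3557 CPM in reference, 1533 to 2439 CPM in HFoleic and 1543 to 2446 CPM in HFepa. The hepatocyte list was at 292972 CPM in library 5 and at 187956 CPM, the lowest of all livers, in library 3. Their part in the miR-10b-5p values was not tested.

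The other strand of miR-10b, miR-10b-3p, had 18 counts over all libraries. Of these, 10 were in library 5, 3 in library 16, 2 in library 4, and 1 each in libraries 3, 6 and 12. It was at 0 in 4 of 8 reference, 7 of 8 HFoleic and 6 of 7 HFepa livers, which allows levels of up to 0.434 to 0.788 CPM depending on the library (3 counts, counting error only). The liver with the most miR-10b-5p also had the most miR-10b-3p. No test of miR-10b-3p was made, since it did not pass the filter on low counts.

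**Figure D3:**
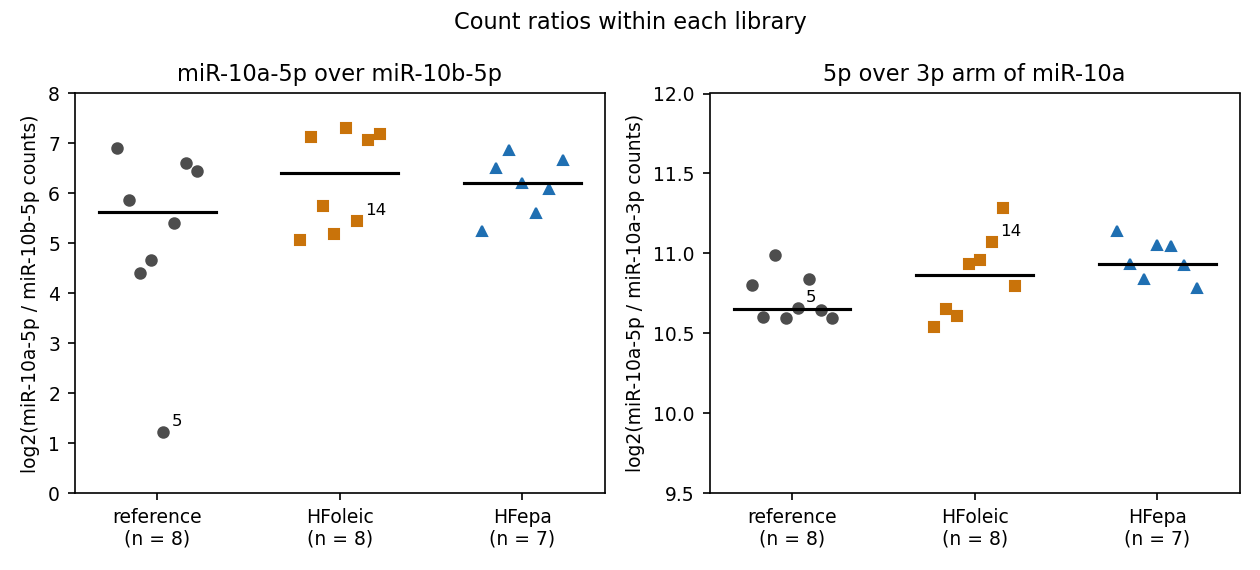
Log2 ratio of miR-10a-5p to miR-10b-5p counts (left) and of miR-10a-5p to miR-10a-3p counts (right) in each liver, by group, with a bar at each group's median and libraries 5 and 14 numbered; the right axis does not start at 0. Library 5 lies at 1.23 on the left, apart from the next reference liver at 4.41, and within its group on the right.

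Ratios within a library do not depend on how libraries are scaled. The log2 ratio of miR-10a-5p to miR-10b-5p, with 0.5 added to each count, ran from 1.23 to 6.92 in reference (median 5.63), from 5.06 to 7.32 in HFoleic (median 6.41) and from 5.24 to 6.87 in HFepa (median 6.20). Reads of miR-10a-5p thus outnumbered those of miR-10b-5p in every liver, by 2.34 times in library 5 and by up to 159.6 times in library 13. In library 5 miR-10b-5p made up 29.9% of the 5p reads of the family (Wilson 95% interval 29.8% to 30.1%), and in the other livers 0.623% to 4.50%. The 5p reads of both genes together took 6.98% of all counts in library 5, against a median of 3.77% over all libraries.

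The mean log2 ratio was 5.20 ± 1.84 in reference (SD, n = 8), 6.27 ± 0.994 in HFoleic (n = 8) and 6.17 ± 0.581 in HFepa (n = 7). Two-sided exact permutation tests gave p = 0.166 for HFoleic vs. reference, p = 0.188 for HFepa vs. reference and p = 0.816 for HFepa vs. HFoleic, or 0.282, 0.282 and 0.816 adjusted over the 3 comparisons. The differences were 1.07, 0.98 and -0.10 in that order, and none passed the test. Without library 5 the reference mean was 5.76 ± 0.973 (n = 7), and the differences from it were 0.51 for HFoleic and 0.41 for HFepa (two-sided exact permutation p = 0.331 and 0.352, adjusted 0.528 for both). The HFoleic livers fell into 4 with log2 ratios of 5.06 to 5.74 and 4 with 7.07 to 7.32, and each set held libraries from both number ranges.

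The 2 strands of the miR-10a hairpin were counted very unequally. The log2 ratio of miR-10a-5p to miR-10a-3p had a mean of 10.84 over the 23 livers, which was the second highest of the 100 hairpins with both strands tested, and ran from 10.54 to 11.28. Its mean was 10.72 ± 0.146 in reference (SD, n = 8), 10.86 ± 0.255 in HFoleic (n = 8) and 10.96 ± 0.127 in HFepa (n = 7). In HFepa vs. reference the difference was 0.24 (95% interval 0.03 to 0.46, unadjusted p = 0.0248 by limma) and was not called after adjustment over the hairpins (adjusted p = 0.0953), where 19% of hairpins were called. In HFoleic vs. reference it was 0.14 (adjusted p = 0.386, 15% of hairpins called) and in HFepa vs. HFoleic 0.11 (adjusted p = 0.811, 0% called by limma, 6 hairpins with an unadjusted p under 0.05). The mean ratio was 10.68 ± 0.137 in libraries 1 to 11 and 10.98 ± 0.146 in libraries 12 to 23, and with a term for these ranges the HFepa vs. reference difference turned to -0.17. The ratio of miR-10b was not tested, because its 3p strand was below the filter.

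Members were also compared across the 23 mice. The log2 CPM of miR-10a-5p and miR-10b-5p had Pearson's r = 0.450 (permutation p = 0.0374) and Spearman's rho = 0.367 (permutation p = 0.0849), and r adjusted over the 2 relations computed had p = 0.0374. Without libraries 14 and 16, the 2 farthest from the median of miR-10a-5p, r was 0.428 (permutation p = 0.0457, adjusted 0.0913), and without library 5 it was 0.377 (permutation p = 0.0825), so r itself moved little and the adjusted p crossed 0.05 in both cases. After the group means were subtracted, with library 5 kept, r was 0.597 (permutation p = 0.00632, adjusted 0.00632) and rho was 0.443 (permutation p = 0.0367, adjusted 0.0735). Within libraries 1 to 11, which hold library 5, r was 0.868 (rho 0.536, permutation p = 0.00285 and 0.0941, adjusted p of r 0.0057). Within libraries 12 to 23 r was 0.583 (rho 0.455, permutation p = 0.0396 and 0.140).

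The strands of miR-10a had r = 0.544 (permutation p = 0.00864, adjusted 0.0173) and rho = 0.301 (permutation p = 0.160). Without libraries 14 and 16 r was 0.365 (permutation p = 0.104) and no longer passed, and without library 5 it was 0.484 (permutation p = 0.0265, adjusted 0.0530). After the group means were subtracted r was 0.628 (permutation p = 0.00164, adjusted 0.00328) and rho was 0.315 (permutation p = 0.142). Within libraries 1 to 11, which hold library 5, r was 0.715 (rho 0.455, permutation p = 0.0254 and 0.164). Within libraries 12 to 23, which hold libraries 14 and 16, r was 0.774 (rho 0.503, permutation p = 0.00486 and 0.0995), so rho did not pass in any of these sets. The relation of the strands of miR-10b was not computed, since miR-10b-3p was at 0 in most livers. Members with shared reads or a shared scaling factor are not independent measures.

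**Figure D4:**
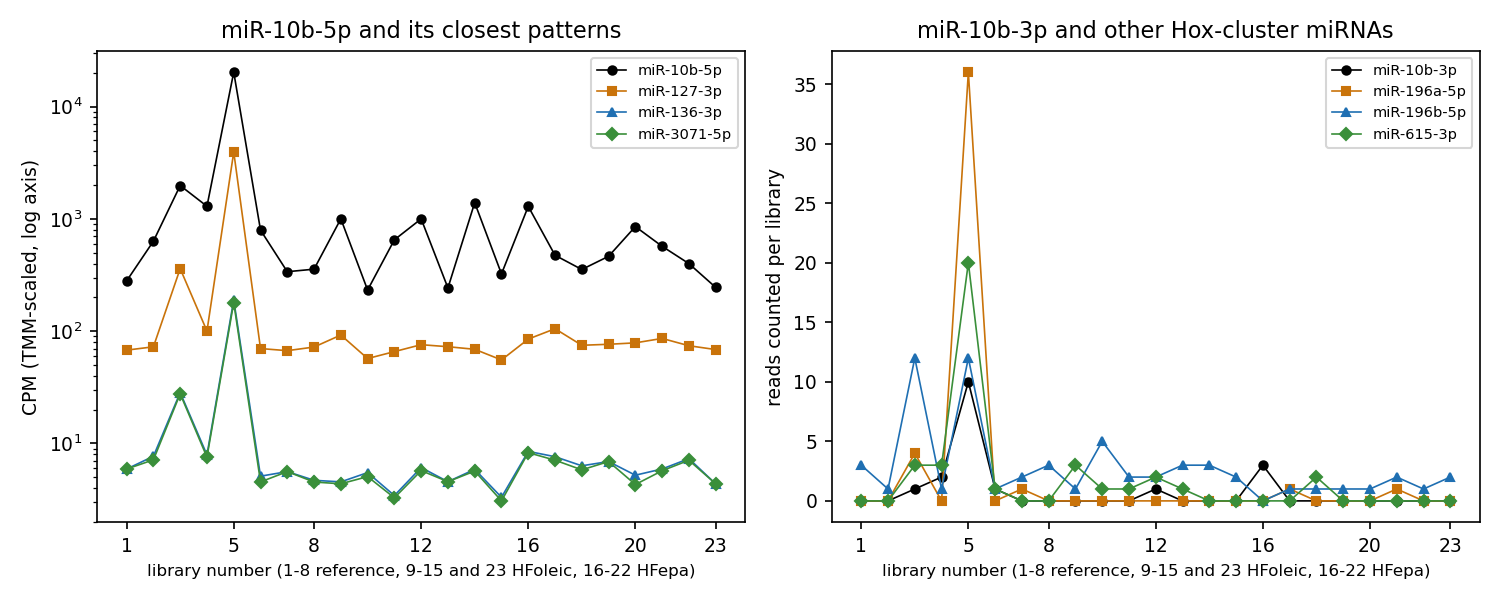
Left, TMM-scaled CPM (log axis) of miR-10b-5p and of the 3 miRNAs closest to it in pattern; right, raw counts of miR-10b-3p and of 3 further miRNAs of the Hox clusters; both by library number (1 to 8 reference, 9 to 15 and 23 HFoleic, 16 to 22 HFepa). Library 5 is the highest for each miRNA shown, sharing the 12 counts of miR-196b-5p with library 3.

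The miRNAs whose log2 CPM ran most like miR-10b-5p over the 23 libraries, at a mean level of 10 CPM or more, were miR-127-3p (r = 0.854), miR-136-3p (r = 0.835) and miR-3071-5p (r = 0.824). All 3 map to chromosome 12 (GRCm38.p6), within the imprinted Dlk1-Dio3 region, which is known for a large cluster of miRNAs. Without library 5 these r fell to 0.590, 0.530 and 0.5001. They were, in libraries 1 to 11, which hold library 5, 0.939, 0.893 and 0.889, and within libraries 12 to 23 they were 0.269, 0.484 and 0.413. In library 5 miR-127-3p stood at 3940 CPM and in library 3 at 360.4 CPM, where its median was 72.4 CPM in reference and 68.7 CPM in HFoleic. The entries miR-136-3p (chr12:109595366-109595387, plus strand) and miR-3071-5p (chr12:109595363-109595384, minus strand) overlap, and their counts in library 5 were 1129 and 1071, so they may be 1 signal counted under both names.

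The patterns most like miR-10a-5p were those of miR-99b-5p (r = 0.746), miR-191-5p (r = 0.732), an abundant miRNA of many tissues, and miR-99a-5p (r = 0.693). Without library 5 these were 0.851, 0.833 and 0.791. Within libraries 1 to 11 they were 0.446, 0.366 and 0.145, and within libraries 12 to 23 they were 0.846, 0.737 and 0.753. Both miR-99 miRNAs belong to the wider miR-10 family by sequence, and these r are descriptions over libraries that share depth and scaling.

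The wider family is shown because miR-99a, miR-99b and miR-100 resemble miR-10 along the strand but carry another seed, in capitals (RefSeq, GRCm38.p6).
miR-99a-5p: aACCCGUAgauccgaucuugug
miR-99b-5p: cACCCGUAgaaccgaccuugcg
miR-100-5p: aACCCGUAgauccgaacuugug
Against miR-10a-5p the edit distance (bases substituted, inserted or deleted) was 3 for miR-100-5p, 4 for miR-99a-5p and 6 for miR-99b-5p, and none shared its seed. These miRNAs are known to act on the mTOR pathway. They lie outside the Hox clusters, at chr16:77598940-77598961 (miR-99a-5p), chr17:17830194-17830215 (miR-99b-5p) and chr9:41531437-41531458 (miR-100-5p), all on the plus strand.

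Of the 6 mature strands of these relatives, 5 were tested, and 3, the 5p strands, rose and were called in both high-fat groups vs. reference. Over all tested miRNAs edgeR called 12.4% in HFoleic vs. reference and 15.8% in HFepa vs. reference. The level of miR-10a-5p did not pass the test. On the log2 scale miR-99a-5p rose by 0.99 in HFoleic and 0.96 in HFepa, miR-99b-5p by 1.64 and 1.88, and miR-100-5p by 2.03 and 2.14, with adjusted p of 0.00428 to 0.0174 by edgeR. The median of the 5 log2 fold changes was 0.99 in HFoleic vs. reference and 0.96 in HFepa vs. reference, beside -0.002 and -0.06 over all tested miRNAs. Neither tested 3p strand was called in these comparisons by edgeR (miR-99a-3p -0.01 and -0.11, miR-99b-3p -0.44 and -0.47, with unadjusted p of 0.912, 0.283, 0.0354 and 0.0361). Correspondingly, the 5p to 3p ratio rose on the log2 scale by 0.85 and 1.04 for miR-99a and by 1.69 and 2.17 for miR-99b, with adjusted p of 0.00437 to 0.0236 by limma. In HFoleic vs. reference the call of miR-99b-5p was lost with quantile normalization (adjusted p = 0.103), limma-voom (0.0566), only the groups compared (0.0516) and without libraries 4 and 5 (0.0846), and that of miR-100-5p with quantile normalization (0.0578).

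**Figure D5:**
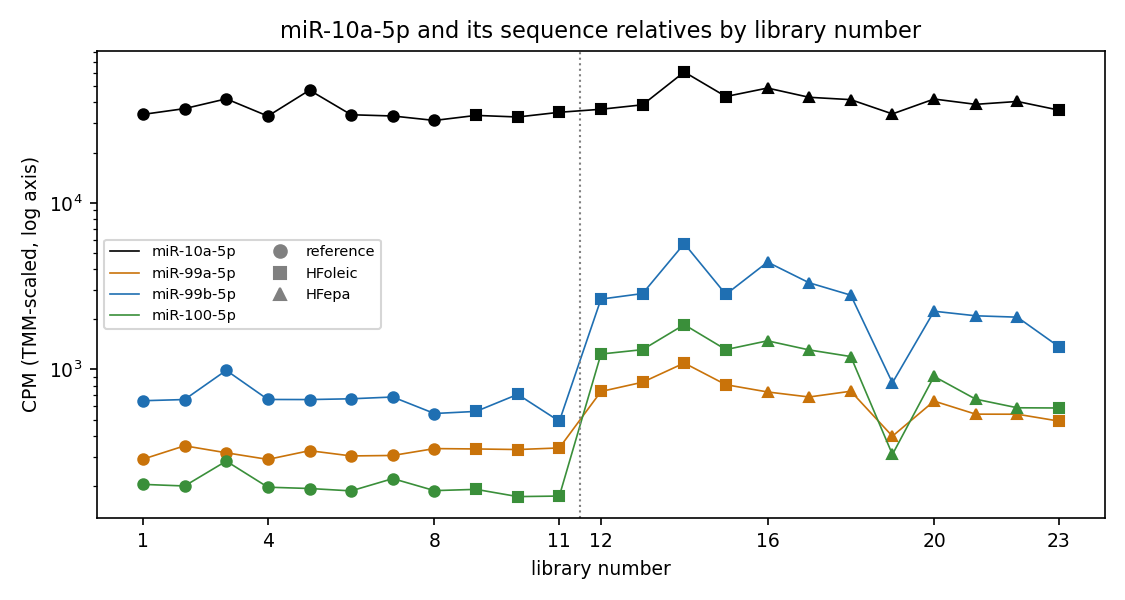
TMM-scaled CPM (log axis) of miR-10a-5p, miR-99a-5p, miR-99b-5p and miR-100-5p in each liver by library number, with the group as the marker shape and a dotted line between libraries 11 and 12. The HFoleic libraries lie low for the 3 relatives at numbers 9 to 11 and high at numbers 12 to 15 and 23. The mean of miR-10a-5p moves the same way by less, from 33685 ± 1117 CPM to 43077 ± 10402 CPM.

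These 5p strands moved with library number, also inside 1 group. In HFoleic miR-100-5p was at 179 ± 10.1 CPM in libraries 9 to 11 (SD, n = 3) and at 1262 ± 451 CPM in libraries 12 to 15 and 23 (n = 5). The corresponding levels were 586 ± 112 CPM and 3074 ± 1585 CPM for miR-99b-5p, and 334 ± 3.74 CPM and 793 ± 216 CPM for miR-99a-5p. The reference group, all in libraries 1 to 8, was at 209 ± 31.4 CPM of miR-100-5p and 689 ± 128 CPM of miR-99b-5p (n = 8), near the HFoleic libraries of low number. The number ranges were not a full divide. HFepa library 19 had 831 CPM of miR-99b-5p, within the reference range of 544 to 987 CPM, and the other HFepa libraries lay above it. Its miR-100-5p was at 309 CPM, beside a reference maximum of 282 CPM. Within libraries 1 to 11 alone the HFoleic vs. reference difference was -0.21 for miR-100-5p and -0.22 for miR-99b-5p on the log2 scale and was not called (adjusted p = 0.662 and 0.670 by edgeR). For miR-99a-5p it was 0.0969 there (adjusted p = 0.687), against 0.99 over all libraries, and was not called either. For HFepa vs. reference the diet, the lineage and the library number cannot be told apart.

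The Hox clusters hold other miRNAs, of which 6 of the 7 listed were in the table and none passed the filter on low counts. The miR-196 sequences, from 1 gene in each of 3 Hox clusters, are shown because they too form a pair that differs by 1 base, A12C, outside a shared seed (capitals).
miR-196a-5p: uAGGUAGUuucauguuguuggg
miR-196b-5p: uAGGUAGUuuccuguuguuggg
In library 5 miR-196a-5p had 36 counts, where library 3 had 4 and every other liver 0 or 1. In that liver miR-615-3p, encoded in the Hoxc cluster, had 20 counts against at most 3 elsewhere, and miR-196a-1-3p had 6 against at most 1. The level of miR-196b-5p was shared between libraries 3 and 5, with 12 counts each, and was at most 5 counts elsewhere. The remaining entries, miR-196b-3p and miR-615-5p, had 1 and 2 counts in all. The Hox-cluster miRNAs that were detected at more than 2 counts were thus highest in the liver that also had the most miR-10b-5p, at levels too low for a test.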

How the data were processed

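Small RNA of 23 mouse livers was sequenced, 1 library per mouse. The authors trimmed adapters with the FASTX-Toolkit, aligned reads with Bowtie in ncPRO-seq and deposited unnormalized read counts per mature miRNA. The build is given as GRCm38.p6, mm9 and mm10, and the table holds no coordinates. The authors also deposited a signal per library (count over a size factor), and their own log2 fold changes and p-values between groups, none of which was used.

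Counts were filtered by filterByExpr, scaled by TMM and fitted in 1 model of 3 groups with edgeR 4.0.16 (R 4.3.3). Strand ratios of 100 hairpins were fitted with limma 3.58.1, ratios of miR-10a-5p to miR-10b-5p were compared by exact permutation, and relations with 100000 resamples. DESeq2 1.42.0 was an alternative. Tests were checked on simulated data. Those data held no outlying library and no shift between ranges of library number, so the check does not cover either. Libraries held 3725432 to 8139344 counts. The Wilson interval and the floors cover counting error only. Intervals of log2 fold changes and of strand ratio differences, from edgeR and limma, also include the spread between mice. Nothing says whether mice shared a litter or cage, so p-values measure the spread between these mice.

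The members and lists were chosen with earlier results of these data known. Named miRNAs are the members, the miR-99 and miR-100 strands, the other Hox-cluster miRNAs and miRNAs of the marker lists. The 3 closest patterns of miR-10a-5p and of miR-10b-5p at a mean of at least 10 CPM are named too. Marker miRNAs called by edgeR are named whether or not they move with a member. The marker lists covered hepatocytes, endothelium, stellate and related cells, leukocytes, red blood cells, biliary epithelium, pancreas, and muscle and heart.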

Additional observations from a re-analysis of the deposited data

Results flagged for a closer look

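The 4 members and the 2 ratios were checked for a liver apart from the rest of its group, by Dixon's gap test at 95%, in 18 sets of 7 or 8 livers. There were 7 such values. A rate of about 1 in 20 sets holds for independent, normally distributed values. Raw CPM is skewed and the sets share libraries and counts, so the 7 were not weighed against that rate. Library 5 stood apart within reference for miR-10b-5p (20244 CPM, next 1981 CPM), for miR-10b-3p (1.68 CPM, next 0.240 CPM) and for the log2 ratio of miR-10a-5p to miR-10b-5p (1.23, next 4.41). Library 14 stood apart within HFoleic for miR-10a-5p (60919 CPM, next 43394 CPM) and for miR-10a-3p (28.2 CPM, next 22.4 CPM). For miR-10b-3p, library 12 of HFoleic (0.185 CPM) and library 16 of HFepa (0.671 CPM) stood apart because the other livers of their group were at 0, and these levels come from 1 and 3 counts.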

How the results depend on the processing

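The levels of miR-10a-5p and miR-10a-3p were not called under any setting, apart from miR-10a-5p by limma-voom, and their small log2 fold changes changed sign under several, while the miR-10b-5p difference from the reference depended on the test and on libraries 3 and 5. The number of members called in HFepa vs. reference was 1 of 3 tested, and 0 with DESeq2, upper-quartile factors, quantile normalization, no filter on low counts, only the groups compared, the robust fit, the library-number term, or without libraries 4 and 5 or 3 and 5. Over all miRNAs the calls there were 61, and 47 with DESeq2, 45 with upper-quartile factors, 24 with quantile normalization and 60 with the robust fit. They were 43 without the filter, 40 with only the groups compared and 0 with the library-number term. Without libraries 4 and 5 they were 30, and without 3 and 5 they were 35. The log2 fold change of miR-10b-5p there was -0.29 with DESeq2, -2.16 with upper-quartile factors, -0.83 with quantile normalization, -0.0276 with limma-voom (which called miR-10a-5p at 0.28), -2.34 without the filter, -2.24 with only the groups compared, -2.36 with the robust fit, -2.39 with the library-number term, -0.21 without libraries 4 and 5 and 0.0459 without libraries 3 and 5, with adjusted p from 0.0561 to 0.977. In HFoleic vs. reference 1 member was called, miR-10b-5p, with library size alone (-2.43), at least 10 counts in every library (-2.33) and an unadjusted p under 0.01 (-2.35), and its value turned to 0.0425 without libraries 3 and 5. Over all miRNAs 48 were called in the main fit, 47 with library size alone, 40 with at least 10 counts and 52 at that unadjusted p. The robust fit and the omission of libraries 3 and 5 were chosen after seeing the data. The cause of these changes was not tested.

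Values whose sign changed were close to 0 in nearly all other cases. For miR-10a-3p they were 0.0362 (upper-quartile), 0.0262 (quantile), 0.0491 (without libraries 4 and 5), 0.0321 (without 3 and 5), 0.00539 (library-number term) and 0.0122 (libraries 1 to 11) in HFoleic vs. reference, 0.0650 (quantile), 0.0221 (limma-voom), 0.0187 (without 4 and 5), 0.0126 (without 3 and 5) and 7.71e-07 (library-number term) in HFepa vs. reference, and 0.0388 (quantile) and 0.0282 (limma-voom) in HFepa vs. HFoleic. For miR-10b-5p in HFepa vs. HFoleic they were 0.0085 (DESeq2), 0.13 (quantile), 0.19 (limma-voom), 0.0108 (only the groups compared) and 0.00347 (without 3 and 5). For miR-99a-3p they were 0.0442 (upper-quartile), 0.0168 (quantile) and 0.12 (libraries 1 to 11) in HFoleic vs. reference and 0.007042 (quantile) in HFepa vs. reference.

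With the library-number term, HFoleic vs. reference was -0.11 for miR-10a-5p, 0.0902 for miR-99a-5p (adjusted p = 0.883), -0.23 for miR-99b-5p, -0.22 for miR-100-5p and 0.11 for miR-99a-3p, and HFepa vs. reference was -0.17 for miR-10a-5p, -0.29 for miR-99a-5p, -0.51 for miR-99b-5p, -0.67 for miR-100-5p, 0.0997 for miR-99a-3p and 0.18 for miR-99b-3p. The HFoleic vs. reference calls of the miR-99a and miR-99b strand ratios were lost without libraries 4 and 5 (adjusted p = 0.0574 and 0.0655) and when library 13, 14 or 15 was left out. With the term the strand ratio differences became -0.12, -0.17 and -0.0489 for miR-10a (HFoleic and HFepa vs. reference, then HFepa vs. HFoleic), -0.0243 and -0.37 for miR-99a, and -0.17 and -0.81 for miR-99b. HFepa vs. HFoleic of miR-10a-5p was -0.0621 with the term and -0.0568 in libraries 12 to 23 alone. Within libraries 1 to 11, HFoleic vs. reference was -0.10 for miR-10a-5p, -0.22 for miR-99b-5p and -0.21 for miR-100-5p.

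When each library was left out in turn, the members called ranged from 0 to 1 in both comparisons with the reference. Calls over all miRNAs ranged from 12 to 53 in HFoleic vs. reference and from 32 to 66 in HFepa vs. reference. The log2 fold change of miR-10b-5p ranged from -2.68 to -0.36 in HFepa vs. reference, from -2.57 to -0.36 in HFoleic vs. reference and from -0.29 to 0.27 in HFepa vs. HFoleic. In the same order miR-10a-3p ranged from -0.0889 to 0.00306, from -0.11 to 0.0187 and from -0.0665 to 0.0509. For miR-10a-5p the ranges were 0.13 to 0.24, 0.000795 to 0.19 and 0.0141 to 0.19. The 5p ratio of miR-10a to miR-10b ranged from 0.41 to 1.22, from 0.51 to 1.32 and from -0.27 to 0.0558, and miR-99a-3p from -0.0580 to 0.0759 in HFoleic vs. reference.

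Over all miRNAs, 48 calls in HFoleic vs. reference became 28 (DESeq2), 10 (quantile), 31 (limma-voom), 29 (no filter), 7 (only the groups compared), 6 (without libraries 4 and 5), 10 (without 3 and 5), 12 (without 5), 1 (library-number term) and 0 (libraries 1 to 11), and 61 in HFepa vs. reference became 24 (quantile), 40 (only the groups compared), 30 (without 4 and 5), 35 (without 3 and 5), 36 (without 5) and 0 (library-number term). No paired analysis was possible because each library carries its own number and the labels tie no mice across groups. Depth limits miR-10b-3p, with 18 counts, and the other Hox-cluster miRNAs, while the spread between mice limits miR-10b-5p.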

Other observations

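The remaining marker lists had these summed levels over reference, HFoleic and HFepa. The hepatocyte list was at 187956 to 338789 CPM, 282314 to 357694 CPM and 263735 to 340930 CPM, and 0 of its 5 miRNAs were called by edgeR in any comparison. The endothelium list was at 13887 to 20330 CPM, 18215 to 26007 CPM and 19645.7 to 23671 CPM, and 1 of its 2 miRNAs, miR-126a-5p, was called higher in HFepa vs. reference (0.25), a call lost without library 3 or 5, among others. The red blood cell list was at 3571 to 8773 CPM, 4021 to 6390 CPM and 3624 to 7256 CPM. The muscle and heart list was at 2.13 to 217 CPM, 1.59 to 12.4 CPM and 3.09 to 7.61 CPM, with 11.8 CPM in library 5. The only tested muscle miRNA, miR-133a-3p, was called lower in both comparisons with the reference, at -2.64 and -2.85 on the log2 scale, and without library 4, which had 205 CPM of it, these were -0.15 and -0.36 and were not called. With 1 library left out at a time, its call was kept in 14 of 23 fits for HFoleic and in 15 of 23 for HFepa. The biliary miR-429-3p was called lower in HFepa vs. reference (-1.22), and without library 3 it was -0.48 and was not called (adjusted p = 0.0750 by edgeR). This call was kept in 16 of 23 fits with 1 library left out. It was also lost without HFepa library 16, 17, 18, 20, 21 or 22 (-1.24 to -1.16, adjusted p from 0.0545 to 0.0651 by edgeR). Of the 6 leukocyte miRNAs only miR-150-5p was called, lower by 0.94 in HFoleic vs. reference and by 1.40 in HFepa vs. reference on the log2 scale. Its call was kept whichever single library was left out. With the library-number term 0 miRNAs were called in HFepa vs. reference, so miR-150-5p was not called there either. All reference libraries lie in numbers 1 to 11 and all HFepa libraries in 12 to 23. That loss therefore cannot decide whether the call of miR-150-5p depends on library number. In HFoleic vs. reference 1 miRNA was called with the term, and the value of miR-150-5p in that fit is not given here. Within libraries 1 to 11 alone, 0 were called in HFoleic vs. reference. Leaving out libraries for these marker miRNAs was chosen after seeing the data.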
